A study of Mus musculus with 23 samples.

Results

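The natriuretic peptides and their receptors were described in single mouse cells through every probe set annotated to Nppa, Nppb, Nppc, Npr1, Npr2 or Npr3. These were 8 of the 45101 probe sets of an Affymetrix expression array, for 6 of the 18193 genes tested. Nppa, Nppb, Nppc, Npr1 and Npr2 had 1 probe set each and Npr3 had 3. The study moved the RNA of cardiomyocytes into other cell types by lipid transfection of poly-A RNA, a procedure its labels call TIPeR, and measured single cells after linear amplification of their RNA. The 23 cells fell into 6 groups. The 6 astroTIPeR cells were astrocytes given the RNA of cardiomyocytes, and the 2 astroControl cells were mock transfected astrocytes. The 5 fibroTIPeR cells were fibroblasts given the RNA of cardiomyocytes, and the 3 fibroControl cells were fibroblasts given the RNA of fibroblasts. The 4 cardiomyocyte cells and the 3 fibroblast cells were not transfected. All groups were cultured in the same serum-containing medium. Strain, age, the animals of origin and the time after transfection were not given in the labels used here, so p-values measure the spread between these cells only.

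Atrial natriuretic peptide, encoded by Nppa, and B-type natriuretic peptide, encoded by Nppb, are hormones of heart muscle cells that lower blood pressure and blood volume. Nppa is a marker of atrial myocytes, and both genes are switched on in ventricular myocytes under load. Both peptides bind Npr1, a membrane guanylyl cyclase that makes cyclic GMP. C-type natriuretic peptide, encoded by Nppc, is made by endothelium, brain and cartilage and binds a second cyclase, Npr2. Npr3 binds all of these peptides, has no cyclase domain and removes them from the circulation.

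Nppa and Nppb are neighbours on mouse chromosome 4 (GRCm38.p6), Nppa at chr4:148000722-148002074 and Nppb at chr4:147985786-147987205. Npr2 lies on the same chromosome at chr4:43629015-43651437, Nppc at chr1:86666293-86670573, Npr1 at chr3:90450591-90465928 and Npr3 at chr15:11839896-11907837. RefSeq promoter windows of 250 bases were found for all 6 genes, each ending before the start site that the promoter table uses. That site is the edge of the printed locus for Nppa and Nppc only. For Nppb, Npr1, Npr2 and Npr3 it lies inside the locus, so that the windows of Npr2 and Npr3 lie wholly within the printed gene bounds and those of Nppb and Npr1 partly. The windows of the heart hormones Nppa and Nppb, on the plus strand at chr4:148000472-148000721 and chr4:147985650-147985899, are shown because they hold letters of the motifs searched. The window of Npr2, on the plus strand at chr4:43631685-43631934, is shown for contrast as that of the member whose level varied least between groups. Capitals mark matches, searched on both strands, to the TATA box letters TATAAA, to the GATA factor letters GATAA, to the NK2 factor letters TNAAGTG and to the T-box factor letters TCACACC. These motifs share no letters with one another in the windows shown, and a match is a description of the sequence only.
Nppa: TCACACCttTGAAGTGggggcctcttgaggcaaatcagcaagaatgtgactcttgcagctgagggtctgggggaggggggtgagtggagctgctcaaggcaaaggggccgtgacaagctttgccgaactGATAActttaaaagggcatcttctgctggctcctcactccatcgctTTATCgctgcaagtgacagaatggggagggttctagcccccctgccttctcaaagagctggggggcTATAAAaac
Nppb: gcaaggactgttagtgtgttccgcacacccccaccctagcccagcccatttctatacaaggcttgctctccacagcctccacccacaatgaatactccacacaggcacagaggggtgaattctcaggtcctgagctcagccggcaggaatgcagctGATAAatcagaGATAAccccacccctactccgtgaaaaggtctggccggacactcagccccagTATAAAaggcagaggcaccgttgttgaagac
Npr2: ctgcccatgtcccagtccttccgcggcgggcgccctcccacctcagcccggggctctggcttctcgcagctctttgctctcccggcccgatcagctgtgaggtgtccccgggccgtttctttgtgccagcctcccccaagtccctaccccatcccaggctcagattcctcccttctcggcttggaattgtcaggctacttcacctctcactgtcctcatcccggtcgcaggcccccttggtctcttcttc
The Nppa window held the TATA box letters 9 to 4 bases before the start site of the promoter table, GATA matches at 121 to 117 and, on the other strand, at 75 to 71 bases, an NK2 match at 241 to 235 bases and a T-box match at 250 to 244 bases. The Nppb window held the TATA box letters at 31 to 26 bases and GATA matches at 94 to 90 and 83 to 79 bases before its own such site, all of them inside the printed Nppb locus. Nppc held the TATA box letters at 29 to 24 bases, and Npr1, Npr2 and Npr3 held none of the 4 motifs. Among 32851 promoter windows of the same length, 12.4% held the TATA box letters, 22.6% a GATA match, 10.1% an NK2 match and 3.33% a T-box match, and 4.16% held a TATA box together with a GATA match. GC content was 54.4% for Nppa, 54.8% for Nppb, 69.2% for Nppc, 70.4% for Npr1, 64.4% for Npr2 and 38.8% for Npr3, against a median of 52.4% over all windows.

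Levels below are log2 values after quantile normalization over all 23 arrays. They compare cells for 1 probe set, not 1 gene with another, because probe sets differ in brightness per transcript. The median of all gene levels, 5.71, is given only to orient the scale. The labelled cell types were checked against marker lists. The 12 cardiomyocyte markers averaged 9.58 in cardiomyocytes, against group means of 4.70 to 5.56 elsewhere. The 11 fibroblast markers averaged 8.28 in fibroTIPeR cells, 9.47 in fibroControl cells and 8.42 in fibroblasts. They averaged 7.53 in astroTIPeR and 7.16 in astroControl cells. In cardiomyocytes 1 to 4 they averaged 5.94, 5.40, 5.98 and 7.51, and 8 of the 11 stood above the orienting median in cardiomyocyte 4. The astrocyte markers did not set the astrocyte arrays apart, averaging 7.39 in astroTIPeR cells and 6.73 in astroControl cells, against 7.76 in cardiomyocytes, with Gfap at 4.69, 5.32 and 6.13 in these groups. The level of the 18S control probe sets averaged 10.5 in fibroTIPeR cells (7.80 to 13.5) and 11.6 in fibroControl cells (11.2 to 12.1), against 7.45 in fibroblasts and 7.48 in cardiomyocytes (6.94 to 8.24). It averaged 8.73 in astroTIPeR cells and 8.63 in astroControl cells. In the deposited values the array medians were 4.28 to 4.56 for the astrocyte arrays and 5.05 to 5.58 for the others. Each is called an array set here, though the labels state no batch. Cell type and array set cannot be told apart across that divide.

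No natriuretic member passed the threshold of an adjusted p under 0.05 in any of 8 group comparisons or in the test of whether the transfer effect differed between recipients. These tests came from 1 limma fit over all genes, in which each gene has 1 spread estimated over all 6 groups. An SE therefore also holds the scatter of groups that are not compared. Of the 54 member tests, 3 had an unadjusted p under 0.05. The share of all genes past the same threshold was 0.00550% for fibroTIPeR against fibroControl, 0.0550% for fibroTIPeR against fibroblast, 0.561% for fibroTIPeR against cardiomyocyte and 1.56% for fibroControl against fibroblast. It was 3.32% for fibroControl against cardiomyocyte, 0.225% for cardiomyocyte against fibroblast, 0.0495% for astroTIPeR against astroControl, 2.13% for astroTIPeR against cardiomyocyte and 0% for the difference between recipients. At an unadjusted p under 0.05 the shares were, in the same order, 6.62%, 10.1%, 14.3%, 17.3%, 19.5%, 9.72%, 9.44%, 16.0% and 7.65% of all genes.

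**Figure D1:**
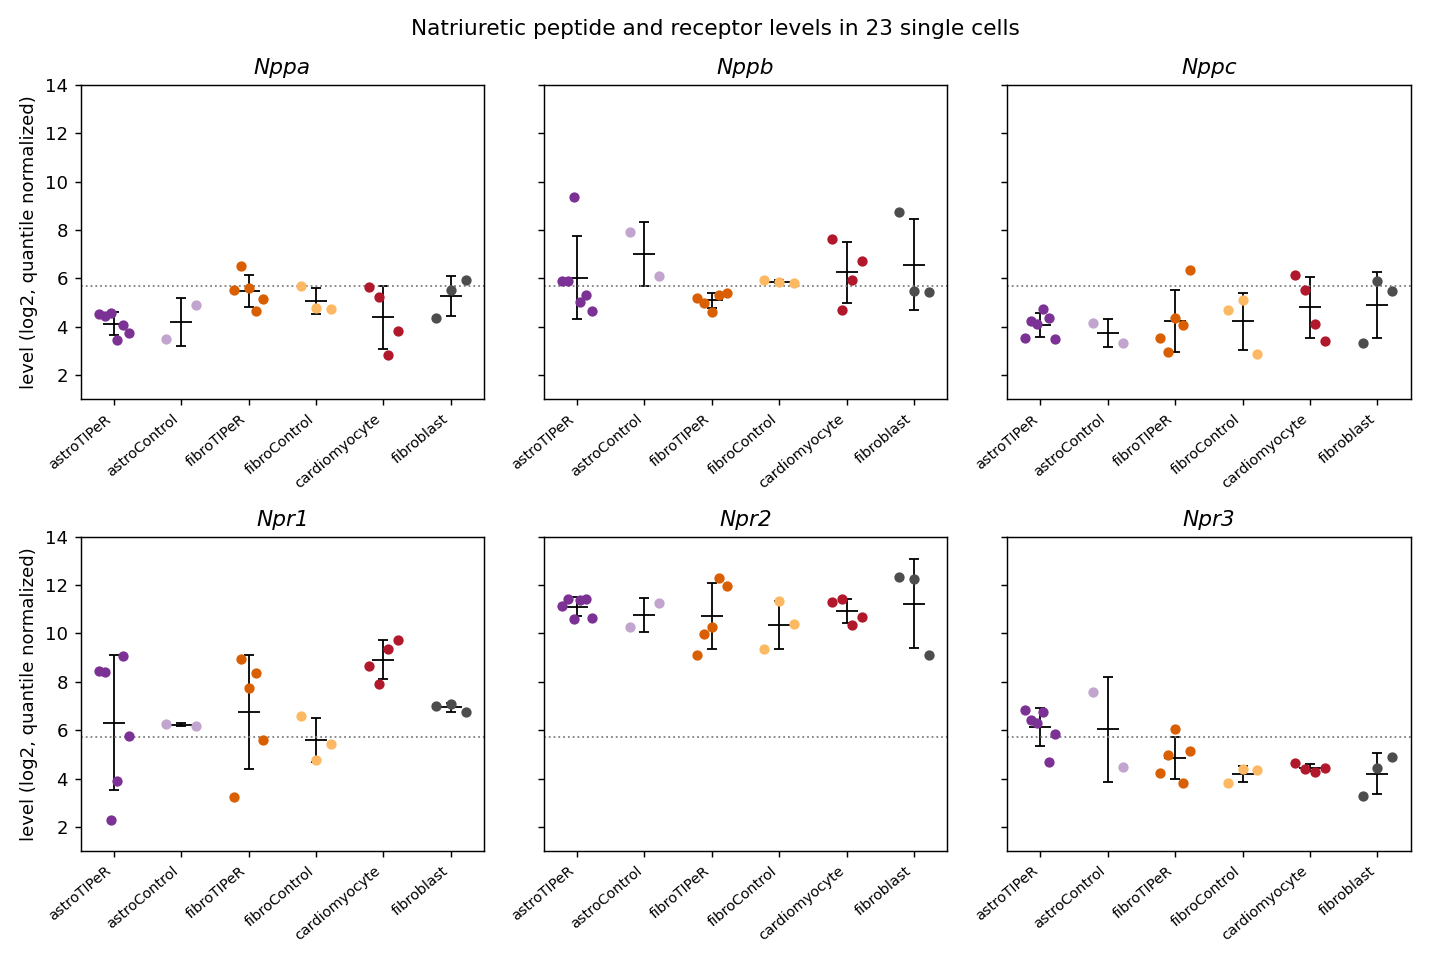
Level (log2, quantile normalized) of each of the 6 genes in each of the 23 cells, by group, with bars for the mean ± SD and a dotted line at the median of all gene levels, 5.71. Npr1 lies at 7.92 to 9.74 in the 4 cardiomyocytes and is scattered in fibroTIPeR and astroTIPeR cells, while Npr2 lies between 9.12 and 12.34 in all cells.

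Nppa, the atrial hormone gene, averaged 4.39 ± 1.29 in cardiomyocytes (SD, n = 4) and 5.28 ± 0.81 in fibroblasts (SD, n = 3). Its levels were 5.66, 5.23, 2.84 and 3.82 in the cardiomyocytes, against 4.37, 5.53 and 5.94 in the fibroblasts. The groups overlapped, with 2 cardiomyocytes below every fibroblast and 1 fibroblast above every cardiomyocyte, and the difference was -0.89 (SE 0.63, 95% interval -2.19 to 0.41, adjusted p = 0.670). The fibroTIPeR cells had 5.51, 6.50, 5.60, 4.67 and 5.14, and the fibroControl cells 5.71, 4.78 and 4.74. These overlapped, with a difference of 0.41 (95% interval -0.83 to 1.65, adjusted p = 0.935). Against cardiomyocytes the fibroTIPeR difference was 1.10 (95% interval -0.045 to 2.24, adjusted p = 0.365). In astrocytes Nppa had a lowest value of 3.44, a median of 4.27 and a highest of 4.58 in astroTIPeR cells, against 3.51 and 4.90 in astroControl cells, a difference of -0.07 (95% interval -1.46 to 1.32). Of the 23 cells, 2 stood above the orienting median, fibroTIPeR 2 and fibroblast 3.

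Nppb, the B-type hormone gene, was high in single cells of several groups rather than in one group. It reached 9.38 in astroTIPeR 3, 8.73 in fibroblast 1, 7.94 in astroControl 1 and 7.64 in cardiomyocyte 1. The fibroTIPeR cells had 5.21, 4.97, 4.63, 5.32 and 5.38, against 5.94, 5.87 and 5.80 in the fibroControl cells. All 5 lay below all 3, a separation that 1.68% of genes showed in that direction, yet the difference was -0.77 (SE 0.90, 95% interval -2.63 to 1.09, adjusted p = 0.916). The SD was 0.31 in fibroTIPeR and 0.07 in fibroControl cells. It was 1.88 in fibroblasts and 1.71 in astroTIPeR cells, whose scatter also enters that SE. Over 22 alternative fits, with the compared groups alone among them, the smallest adjusted p was 0.853. The fibroblasts had 8.73, 5.49 and 5.46, also above every fibroTIPeR cell, where 2.35% of genes lay apart in that direction, with a difference of -1.46 (95% interval -3.32 to 0.40, adjusted p = 0.624). On the deposited values the fibroTIPeR cells, at 4.72 to 5.81, overlapped the fibroblasts, at 5.78 to 9.00. Both comparisons share the fibroTIPeR cells. The cardiomyocytes had 7.64, 4.69, 5.94 and 6.74, which overlapped the fibroblasts, with a difference of -0.31 (95% interval -2.25 to 1.63, adjusted p = 0.945). The astroTIPeR cells had a lowest value of 4.67, a median of 5.60 and a highest of 9.38, against 7.94 and 6.08 in astroControl cells, and the ranges overlapped.

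Nppc, the C-type peptide gene, had ranges that overlapped between all groups. The fibroTIPeR cells had 3.54, 2.95, 4.38, 4.09 and 6.33, against 4.69, 5.10 and 2.90 in fibroControl cells, with a difference of 0.03 (95% interval -1.46 to 1.52, adjusted p = 0.997). The cardiomyocytes had 6.14, 5.53, 4.12 and 3.42 and the fibroblasts 3.34, 5.89 and 5.49. The astroTIPeR cells ran from 3.50 over a median of 4.19 to 4.74, and the astroControl cells had 4.16 and 3.34. Of the variance of Nppc over all cells, 13.4% lay between groups, against 31.9% for the median gene.

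Npr1, the receptor of the atrial and B-type hormones, was the member with the widest spread and the largest differences. Its SD over the 23 cells was 2.01, at the 95.3 percentile of all genes. Of its variance 27.3% lay between groups, against 31.9% for the median gene. Within groups its SD reached 2.35 in fibroTIPeR and 2.78 in astroTIPeR cells. The cardiomyocytes had 8.64, 7.92, 9.35 and 9.74, a mean of 8.91 ± 0.80 (SD, n = 4), and the fibroblasts had 7.01, 7.08 and 6.74, a mean of 6.95 ± 0.18 (SD, n = 3). Every cardiomyocyte lay above every fibroblast, as 8.41% of genes did in that direction. The difference was 1.97 (SE 1.34, 95% interval -0.78 to 4.71, adjusted p = 0.652), with an SE that also holds the scatter of the TIPeR groups. The fibroControl cells had 6.57, 4.78 and 5.43, below all cardiomyocytes, and the difference of -3.32 (SE 1.34, 95% interval -6.07 to -0.57) had an adjusted p of 0.167. In a limma fit of the compared groups alone the adjusted p was 0.0357. Of all genes, 11.1% lay below without overlap in that comparison. The fibroControl cells also lay below the 3 fibroblasts, with a difference of -1.35 (95% interval -4.29 to 1.58, adjusted p = 0.668), as 10.9% of genes did. The 18S level was 11.2 to 12.1 in fibroControl cells, against 6.94 to 8.24 in cardiomyocytes, and averaged 7.48 in cardiomyocytes and 7.45 in fibroblasts. With 18S as a covariate the Npr1 difference was -2.05 for fibroControl against cardiomyocyte (adjusted p = 0.890), -0.073 for fibroControl against fibroblast (adjusted p = 0.993) and 1.98 for cardiomyocyte against fibroblast (adjusted p = 0.593). The 18S range of fibroControl cells overlapped neither that of cardiomyocytes nor that of fibroblasts, 7.05 to 8.06. In those comparisons 18S level and group therefore cannot be told apart by this fit.

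Within the fibroTIPeR group Npr1 was 3.22, 8.93, 7.73, 8.39 and 5.58. Cells 2 and 4 reached the cardiomyocyte range, cell 3 fell just short of it and cell 1 was lower than every fibroControl cell. The difference from fibroControl cells was 1.18 (SE 1.28, 95% interval -1.45 to 3.81, adjusted p = 0.906), and from cardiomyocytes -2.14 (95% interval -4.55 to 0.27, SE 1.17). The astroTIPeR cells had 8.43, 8.41, 2.31, 3.90, 9.09 and 5.77, so 3 of them lay in the cardiomyocyte range and the other 3 lay below both astroControl cells, at 6.26 and 6.18. The astroTIPeR difference from astroControl was 0.09 (95% interval -2.84 to 3.03, adjusted p = 0.995), and from cardiomyocytes -2.59 (95% interval -4.92 to -0.27, adjusted p = 0.250). Endothelium also carries Npr1. Of its 8 markers, in cardiomyocyte 2 Cdh5 read 10.20 and Kdr 10.19, while Pecam1, Emcn, Nos3, Tek, Tie1 and Vwf lay between 2.90 for Vwf and 6.21 for Pecam1. In cardiomyocyte 4 Kdr read 9.19 and Vwf 7.72, and the others lay between 3.22 for Tie1 and 6.36 for Tek. In cardiomyocytes 1 and 3 the highest marker was Pecam1, at 8.15 and 8.04. The list averaged 5.58, 6.02, 5.16 and 5.60 in cardiomyocytes 1 to 4, against 4.59 to 5.50 per fibroControl cell. The part of endothelium in the Npr1 levels was not tested.

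**Figure D2:**
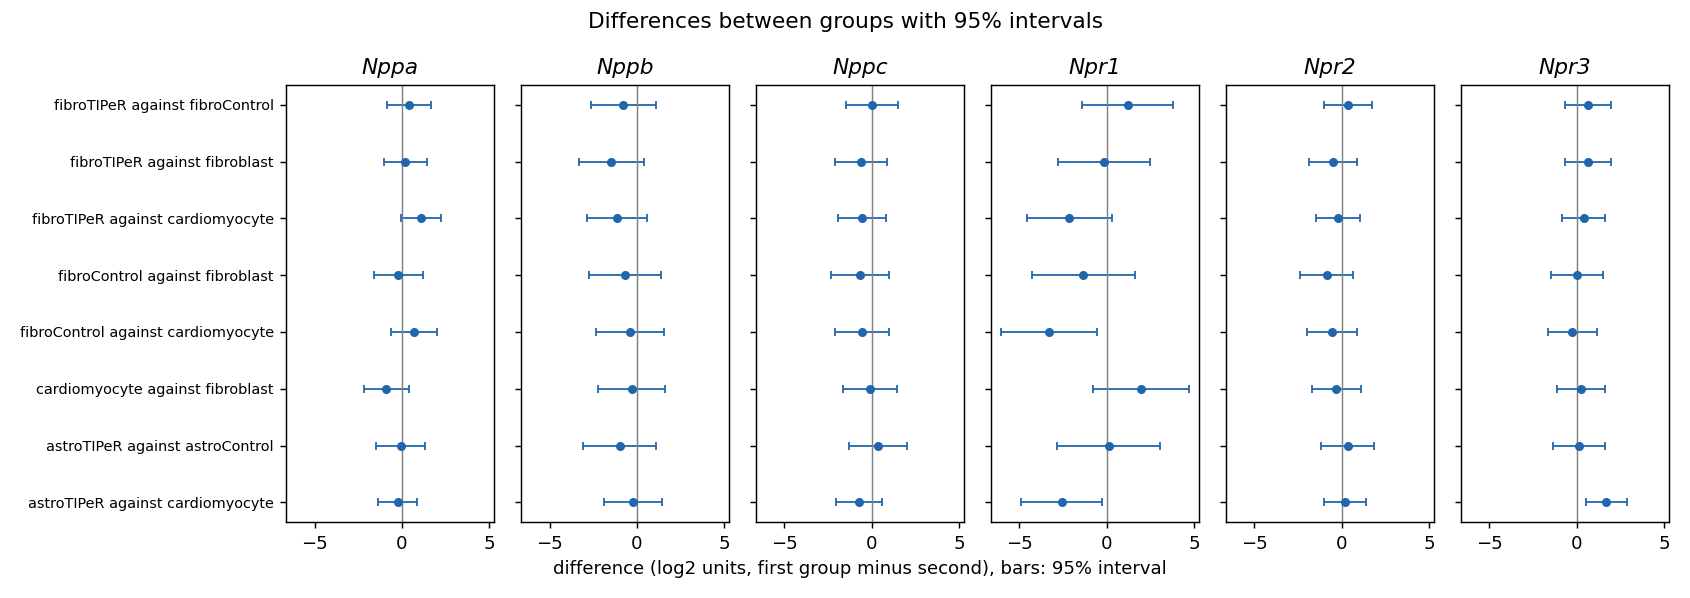
Difference between groups (log2 units, first-named group minus second) for each member in the 8 comparisons, with bars for the 95% interval of the limma fit. The intervals that leave 0 are those of Npr1 for fibroControl and astroTIPeR cells against cardiomyocytes and of Npr3 for astroTIPeR cells against cardiomyocytes, and none passed after adjustment over all genes.

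Npr2, the receptor of the C-type peptide, differed least between groups: 8.39% of its variance lay between them. It stood above the orienting median in all 23 cells. The fibroTIPeR cells had 9.12, 10.00, 10.26, 12.29 and 11.94 and the fibroControl cells 9.36, 11.34 and 10.39, a difference of 0.36 (SE 0.66, adjusted p = 0.949). The cardiomyocytes had 11.28, 11.40, 10.36 and 10.66, against 12.34, 12.25 and 9.12 in the fibroblasts, a difference of -0.31 (95% interval -1.73 to 1.11, adjusted p = 0.918). The astroTIPeR cells ran from 10.62 over a median of 11.25 to 11.44, against 10.25 and 11.27 in astroControl cells. Over the 15 fibroblast and cardiomyocyte arrays Npr2 correlated at -0.58 with the 18S level, Npr1 at -0.49, Nppb at -0.47 and Nppc at -0.37, while Nppa correlated at 0.40 and Npr3 at 0.33 (Pearson). This is a description only, as the labels give no batches of amplification or arrays.

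Npr3, the clearance receptor, had the largest share of variance between groups of the 6 members, 54.5%. By its main probe set (1435184_at) the astroTIPeR cells ran from 4.70 over a median of 6.34 to 6.85, and the cardiomyocytes had 4.65, 4.40, 4.29 and 4.45. Every astroTIPeR cell lay above every cardiomyocyte, as 3.84% of genes did in that direction. The difference was 1.69 (SE 0.57, 95% interval 0.52 to 2.86, adjusted p = 0.121). On the deposited values the difference was 0.66 (adjusted p = 0.437) and the groups overlapped, at 3.98 to 6.47 in astroTIPeR cells and 4.70 to 5.15 in cardiomyocytes. The astroControl cells had 7.57 and 4.49, overlapping both, and the difference of astroTIPeR from astroControl cells was 0.11 (95% interval -1.37 to 1.59, adjusted p = 0.989). The fibroTIPeR cells had 4.22, 4.97, 6.04, 3.80 and 5.14, against 3.82, 4.40 and 4.37 in fibroControl cells, a difference of 0.64 (95% interval -0.69 to 1.96, adjusted p = 0.901).

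The 3 Npr3 probe sets differed in how they varied over the cells. Over the 23 cells the main one correlated at 0.64 with 1448024_at and at 0.10 with 1450286_at, and 1448024_at with 1450286_at at 0.34. Tested on their own among 34945 probe sets, none of the 72 member tests passed, and 9 had an unadjusted p under 0.05. In the order of comparisons above, 0.00286%, 0.0286%, 0.630%, 1.37%, 2.60%, 0.160%, 0.0744%, 1.78% and 0% of probe sets passed after adjustment, and 6.66%, 10.4%, 13.2%, 16.6%, 17.7%, 9.30%, 9.62%, 15.8% and 7.96% had an unadjusted p under 0.05. By 1450286_at the astroTIPeR cells ran from 2.95 over a median of 3.09 to 3.95, below the astroControl cells at 5.32 and 5.24. The difference was -2.02 (95% interval -3.20 to -0.84, adjusted p = 0.164), and 5.08% of probe sets lay below without overlap there. By 1448024_at the fibroTIPeR cells had 4.03, 4.12, 5.48, 4.63 and 6.04, against 3.95, 3.22 and 3.56 in fibroControl cells, a difference of 1.28 (adjusted p = 0.660). That comparison gave 1.0 by 1450286_at (adjusted p = 0.777) and 0.64 by 1435184_at (adjusted p = 0.915), so all 3 differences were positive. For astroTIPeR against cardiomyocyte the difference was 1.23 by 1448024_at (adjusted p = 0.203) and 0.41 by 1450286_at (adjusted p = 0.705). By 1450286_at these groups overlapped, at 2.95 to 3.95 in astroTIPeR cells and 1.87 to 3.51 in cardiomyocytes.

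**Figure D3:**
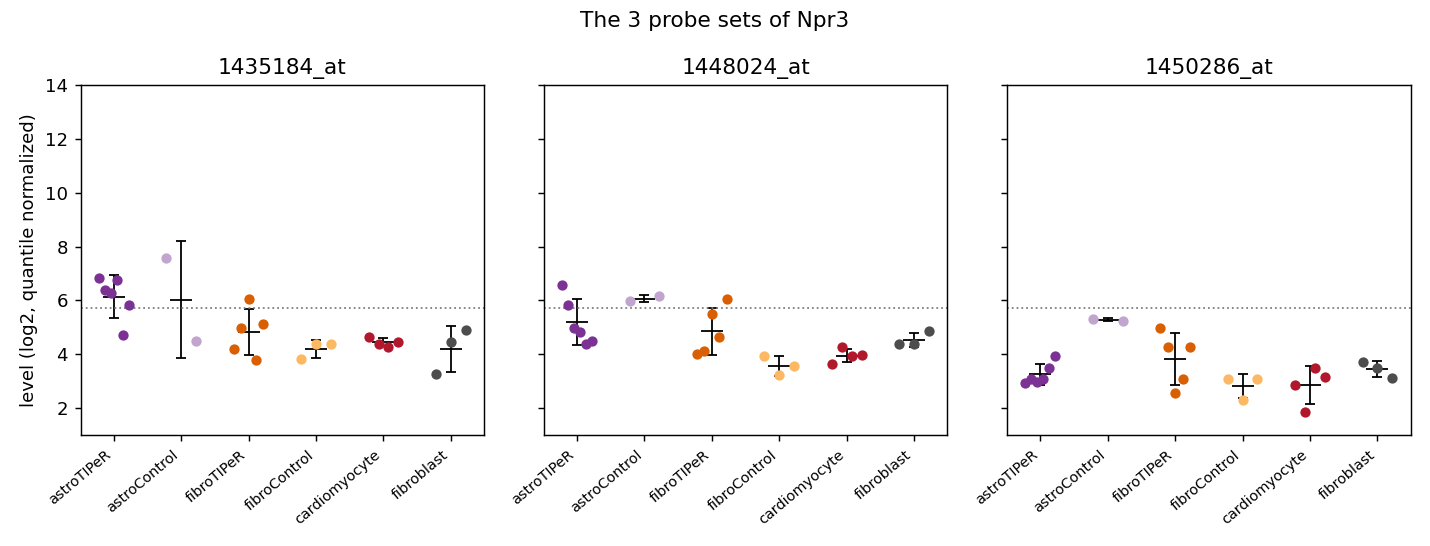
Level (log2, quantile normalized) of each cell by group for the 3 Npr3 probe sets, with bars for the mean ± SD and a dotted line at the median of all gene levels. The astroTIPeR and astroControl cells overlap by 1435184_at and 1448024_at and lie apart by 1450286_at, at 2.95 to 3.95 and at 5.24 and 5.32.

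Ordered by group mean, neighbouring groups overlapped for every member except in 2 places: Nppb in fibroControl above fibroTIPeR, and Npr1 in cardiomyocyte above fibroblast. The transfer effect in astrocytes minus that in fibroblasts was first taken by the probe set that represents each gene. It ranged over the members from -1.08 for Npr1 (95% interval -5.02 to 2.86) to 0.31 for Nppc (95% interval -1.92 to 2.54), with adjusted p from 0.938 to 0.999. The other Npr3 probe sets, tested on their own, lay outside that range. They gave -3.03 by 1450286_at (95% interval -4.61 to -1.44) and -2.17 by 1448024_at (95% interval -3.85 to -0.48), against -0.53 by 1435184_at. None of these passed after adjustment over all probe sets. The controls of this test differ in kind, a mock transfection in astrocytes and fibroblast RNA in fibroblasts.

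Around the peptides, genes of their processing, cyclic GMP signalling, gene regulation and the atrial and stress programme were followed as 4 lists. Of the processing and clearance genes 7 were measured, and 1 passed in 1 comparison, fibroControl against cardiomyocyte, where 3.32% of all genes passed. Furin, a protease that cuts peptide precursors, averaged 9.34 ± 0.72 in fibroControl cells (SD, n = 3) and 6.35 ± 1.63 in cardiomyocytes (SD, n = 4), a difference of 2.99 (SE 0.85, adjusted p = 0.0485). That call was lost in 13 of 19 alternative fits, with 18S as a covariate giving 2.01 (adjusted p = 0.776). The 18S levels of these groups did not overlap, so that fit cannot separate 18S from the group. Leaving out any fibroControl cell, or cardiomyocyte 1 or 2, also lost it, with adjusted p from 0.0759 to 0.155. Ide, a peptide-degrading protease, averaged 9.69 ± 1.43 in astroTIPeR cells (SD, n = 6) and 5.36 ± 0.42 in astroControl cells (SD, n = 2), a difference of 4.33 (adjusted p = 0.159). Corin, which cleaves the Nppa precursor in heart, averaged 3.69 in cardiomyocytes and 5.29 in fibroblasts (adjusted p = 0.517).

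Of the 17 cyclic GMP genes none passed in any comparison. Pde3a, a phosphodiesterase inhibited by cyclic GMP, averaged 10.15 ± 0.58 in cardiomyocytes (SD, n = 4) and 7.69 ± 1.12 in fibroblasts (SD, n = 3), a difference of 2.47 (adjusted p = 0.308). Prkg1, the cyclic GMP-dependent kinase, averaged 7.61 in astroTIPeR cells and 4.56 in cardiomyocytes, a difference of 3.05 (adjusted p = 0.0674). Pde5a, which degrades cyclic GMP, averaged 4.80 in fibroTIPeR cells and 2.94 in fibroControl cells, a difference of 1.86 (adjusted p = 0.546). The list's median difference for fibroTIPeR against fibroControl was 0.15, against -0.02 for all genes.

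Of the 16 regulators measured none passed either. Gata6, a GATA factor of heart, averaged 11.31 in cardiomyocytes and 9.23 in fibroblasts, a difference of 2.08 (adjusted p = 0.443). Mef2c, a muscle factor, averaged 7.16 in fibroControl cells and 10.25 in cardiomyocytes, a difference of -3.09 (adjusted p = 0.0546). Tead1 averaged 7.98 in fibroTIPeR cells and 5.16 in fibroControl cells, a difference of 2.83 (adjusted p = 0.502). It was 9.97, 8.81 and 9.93 in fibroTIPeR cells 1 to 3 and 6.15 and 5.07 in cells 4 and 5, so the mean describes neither set. For astroTIPeR against the 2 astroControl cells 14 of 16 differences were positive, against 54.4% of all genes, with a median of 0.71, against 0.08 for all genes. Some marker lists leaned the same way there: 7 of 9 astrocyte (median 0.62), 8 of 11 fibroblast (0.61) and 8 of 12 cardiomyocyte markers (0.49) were positive. Counts were nearer the share of all genes for endothelial (5 of 8, 0.29), macrophage (4 of 7, 0.17) and neuron markers (3 of 6, 0.15). The same held for cyclic GMP genes (9 of 17, 0.48) and atrial and stress genes (6 of 12, 0.21). The median was below 0 for smooth muscle markers (-1.23, 1 of 6 positive) and processing genes (-0.05, 3 of 7 positive). So some lists leaned positive beside the regulators and others did not. Of the 16, 2 had an unadjusted p under 0.05, where 9.44% of all genes did. The 12 atrial and stress genes measured, which include Nppa and Nppb, also gave no call. Rcan1, a calcineurin inhibitor, averaged 4.73 in fibroTIPeR cells and 7.69 in fibroControl cells, a difference of -2.96 (adjusted p = 0.352). Bmp10, an atrial ligand, averaged 6.99 in cardiomyocytes and 5.08 in fibroblasts, a difference of 1.91 (adjusted p = 0.577).

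**Figure D4:**
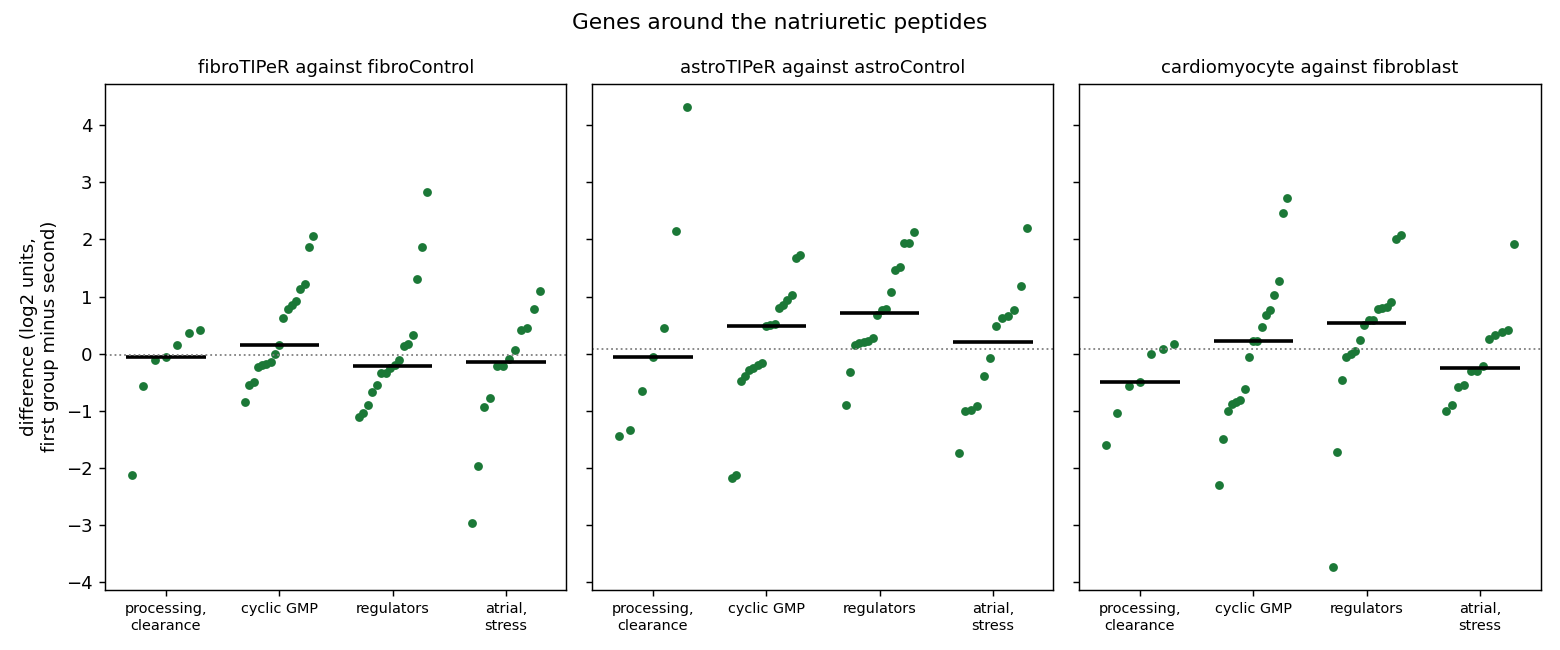
Difference (log2 units, first-named group minus second) of each gene of the 4 lists in 3 comparisons, with a bar at each list's median and a dotted line at the median of all genes. The regulators' median is -0.22 for fibroTIPeR against fibroControl, 0.71 for astroTIPeR against astroControl and 0.54 for cardiomyocyte against fibroblast. For astroTIPeR against astroControl the other medians are 0.48 (cyclic GMP), 0.21 (atrial, stress) and -0.05 (processing, clearance).

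Genes with the most similar pattern were sought over the 15 fibroblast and cardiomyocyte arrays among 9927 genes, for the 4 members with enough spread. Npr1 was most like Tcf12 (Pearson r = 0.94, and 0.68 over all 23 cells), Asah2 (0.91 and 0.57) and Cds2 (0.91 and 0.63). Npr2 was most like Elk1 (0.95 and 0.92), Kat14 (0.94 and 0.94) and Lig4 (0.94 and 0.93). Nppc was most like Rmdn1 (0.86 and 0.64), Spink12 (0.85 and 0.81) and Mfn2 (0.84 and 0.74), and Nppb like Il1r2 (0.78 and 0.68), Rchy1 (0.78 and 0.52) and Muc5ac (0.76 and 0.09). These are the highest of many correlations over few cells, whose batches of amplification and arrays are not given, and serve as a description.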

How the data were processed

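The authors deposited 1 table of log2 expression values per probe set for 23 single-cell arrays; the summarization and normalization behind them were not given in the sources used here. Per the labels' protocols, RNA of single cells was amplified before hybridization. Column medians of the deposited log2 values differed by 1.29, above the limit of 1, so all columns were quantile normalized together. Probe sets were named through the platform annotation: 34945 had 1 gene symbol, 932 several and 9160 none listed, besides 64 controls. Each gene was represented by its probe set with the highest mean. Group means over all 23 cells were fitted with limma 3.58.1 in R 4.3.3 (eBayes with trend, two-sided), with Benjamini-Hochberg adjustment over 18193 genes and a threshold of 0.05, and tested on simulated data. In the simulated data the fit found 26% of changes of 2 log2 units for fibroTIPeR against fibroControl. It found 19% for cardiomyocyte against fibroblast and 17% for astroTIPeR against astroControl. Of changes of 4 log2 units it found 84%, 78% and 61%, in the same order. The number of arrays limits the precision, and a change of 2 log2 units would mostly be missed. No arrays were identical; gene-level correlations between arrays ran from 0.58 to 0.93. The members and lists were chosen with earlier results of these data known. The 6 members were always named; of each list, up to 3 genes past the threshold, otherwise those with the smallest p, were eligible, and the text names a part of these. Marker lists were cardiomyocyte, fibroblast, astrocyte, endothelial, smooth muscle, macrophage and neuron. Alternatives covered scaling, probe set choice, low levels, eBayes settings, array weights, covariates and left-out cells. Promoters came from RefSeq (GRCm38.p6).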

Additional observations from a re-analysis of the deposited data

Results flagged for a closer look

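Nppb stood at 9.38 in astroTIPeR 3, while the other astroTIPeR cells lay between 4.67 and 5.90. Its gap to the nearest cell was 0.739 of the group's whole range, above Dixon's limit for 6 samples. It was the 1 such case among 24 groups of cells tested over the members' probe sets, and chance gives about 1 in 20. The same cell had the lowest Npr1 of all cells, 2.31.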

How the results depend on the processing

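Over 37 settings, 1137 alternative member differences were computed for the 54 pairs of member and comparison, and 101 changed sign, none of them past the threshold; 20 pairs kept their sign throughout. The count of members past the threshold was 0 in all but 4 of 194 alternatives, where it was 1: Nppc for astroTIPeR against cardiomyocyte as deposited (-1.85, adjusted p = 0.0396), Npr3 for the same comparison with median centring (1.79, adjusted p = 0.0379) and array weights (1.61, adjusted p = 0.0312), and Npr1 for fibroControl against cardiomyocyte with the compared groups alone (-3.32, adjusted p = 0.0357). As deposited, Npr3 for astroTIPeR against cardiomyocyte was 0.66 (adjusted p = 0.437). The cause of these changes was not tested. No detection or background values were used here, so a low level cannot be read as absence of the transcript, and groups of 2 to 6 cells leave intervals more than 2 log2 units wide for every member. The deviations of same-numbered cells from their group means correlated at -0.34 to 0.29, with 6 of 25 pairs over 0.1. Differently numbered cells were not compared, so these values cannot decide whether the shared numbers pair the cells. The fit with the replicate block passed 0 members (smallest adjusted p = 0.154). The 18S level of fibroControl cells lay apart from that of fibroblasts and cardiomyocytes, so a fit with it as a covariate cannot separate it from the group there. With 18S as a covariate, the sign changed for fibroTIPeR against fibroControl (Nppc -0.19, Npr2 -0.16), fibroTIPeR against fibroblast (Nppa -0.30, Npr1 0.76, Npr2 0.91), fibroTIPeR against cardiomyocyte (Nppc 0.042, Npr2 1.20), fibroControl against fibroblast (Nppb 0.26, Nppc 0.13, Npr2 1.06), fibroControl against cardiomyocyte (Nppb 0.56, Nppc 0.23, Npr2 1.36), astroTIPeR against cardiomyocyte (Nppb 0.061) and the difference between recipients (Nppb 0.065, Npr2 0.55). With array weights, the sign changed for fibroTIPeR against fibroblast (Npr1 0.33), fibroTIPeR against cardiomyocyte (Nppc 0.020, Npr2 0.35), fibroControl against fibroblast (Npr3 0.046), cardiomyocyte against fibroblast (Nppb 0.059), astroTIPeR against astroControl (Npr3 -0.013) and astroTIPeR against cardiomyocyte (Nppa 0.26). On the values as deposited, the sign changed for the difference between recipients (Npr2 0.085). With fibroTIPeR cells 1 to 3 only, the sign changed for fibroTIPeR against fibroControl (Nppc -0.61, Npr2 -0.57) and the difference between recipients (Npr2 0.91). With fibroTIPeR cells 4 and 5 only, the sign changed for fibroTIPeR against fibroControl (Nppa -0.17), fibroTIPeR against fibroblast (Nppa -0.38, Nppc 0.30, Npr1 0.039, Npr2 0.88), fibroTIPeR against cardiomyocyte (Nppc 0.41, Npr2 1.19) and the difference between recipients (Nppa 0.10, Nppc -0.64). With the mean of all probe sets, the sign changed for cardiomyocyte against fibroblast (Npr3 -0.32) and astroTIPeR against astroControl (Npr3 -0.93). With median centring, the sign changed for fibroControl against fibroblast (Npr3 0.049) and the difference between recipients (Npr2 0.26). With quantile normalization within each array set, the sign changed for the difference between recipients (Npr2 0.036). With the replicate block, the sign changed for fibroTIPeR against fibroControl (Nppc -0.20, Npr2 -0.031), cardiomyocyte against fibroblast (Furin -0.036), astroTIPeR against astroControl (Nppa 0.49), astroTIPeR against cardiomyocyte (Nppb 0.14) and the difference between recipients (Npr2 0.35). Leaving out 1 cell at a time changed a sign within these ranges: fibroTIPeR against fibroblast (Npr1 -0.71 to 0.71, Nppa -0.25 to 0.53, Npr2 -1.57 to 0.038), fibroTIPeR against cardiomyocyte (Npr2 -0.60 to 0.20), the difference between recipients (Nppc -0.13 to 0.98, Npr2 -0.52 to 0.49, Nppb -1.14 to 0.72, Npr3 -2.07 to 1.01, Nppa -1.18 to 0.22). The ranges were also of mixed sign for fibroTIPeR against fibroControl (Npr2 -0.14 to 0.85, Nppc -0.64 to 0.47), fibroControl against fibroblast (Npr3 -0.48 to 0.34, Nppb -1.24 to 0.39, Nppa -0.66 to 0.12), fibroControl against cardiomyocyte (Nppc -1.04 to 0.091, Nppb -0.90 to 0.083). Further ranges of mixed sign were those for cardiomyocyte against fibroblast (Nppb -0.86 to 0.78, Npr2 -1.37 to 0.24, Npr3 -0.23 to 0.59, Furin -0.38 to 0.77, Nppc -0.88 to 0.39), astroTIPeR against cardiomyocyte (Nppa -0.76 to 0.17, Nppb -0.89 to 0.24, Npr2 -0.013 to 0.34), astroTIPeR against astroControl (Npr1 -0.46 to 0.90, Npr3 -1.43 to 1.65, Nppa -0.77 to 0.63, Npr2 -0.16 to 0.85, Nppc -0.070 to 0.75).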
